A study of Drosophila melanogaster with 5 samples.

Results

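The genes described here are the translation factors of the fly ovary, chosen by name: every gene of the deposited count table whose symbol starts with eIF (initiation), eEF (elongation) or eRF (release). There are 53 such genes among the 14094 in the table, of which 43 start with eIF, 8 with eEF and 2 with eRF. RNA came from ovaries that were taken from adult females of Drosophila melanogaster 1 to 3 days post-eclosion. The knockout, BEAF32-AB KO, has 2 libraries (KO 1 and KO 2) and alters BEAF-32, a DNA-binding protein of insulators. The control, with 3 libraries (controls 1, 2 and 3), has the genotype nosGAL4;MKRS/TM6 and is titled WT. nosGAL4 is a driver that makes the GAL4 activator in the germline, and MKRS and TM6 are balancers of chromosome 3. The knockout's label names neither the driver nor the balancers, so these differences in stock cannot be told apart from that of BEAF-32. The series title places this comparison in work on how the genome's layout bears on nuclear pores and on differentiation in oogenesis. Whether each library had its own flies is not stated in the labels, so a p-value here measures only library-to-library spread, which may be technical.

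Translation begins when the eIF4F complex (the cap-binding protein eIF4E, the scaffold eIF4G and the helicase eIF4A) takes an mRNA by its cap. It brings the mRNA to a small ribosomal subunit that carries eIF3, eIF1, eIF1A and the ternary complex of eIF2, GTP and initiator tRNA. eIF2B recharges eIF2 with GTP, the eEF1 complex delivers aminoacyl-tRNAs and eEF2 moves the ribosome along, and eRF1 with eRF3 ends the chain at a stop codon. In flies several factors have a second gene that is used in the testis, among them eIF4E3 and eIF4G2, both needed for male germ cells.

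Depth was 38820176 (KO 1) and 47805964 (KO 2) estimated counts in the knockout, against 41105107 (control 1), 8448850 (control 2) and 10388643 (control 3). Levels are CPM, the share of a library's total counts scaled to 1e6. Differences are log2 fold changes (KO over control, SE the standard error), and a gene is called at an adjusted p under 0.05 over all 9241 tested genes (quasi-likelihood test of edgeR, Benjamini-Hochberg). BEAF-32 was at 50.2 and 52.8 CPM in KO ovaries, against 84.9, 137 and 144 CPM in control ovaries (log2 fold change -1.19, SE 0.26, adjusted p = 0.0157). Transcript of BEAF-32 was thus still counted, and what the allele removes is not stated in the labels. Marker genes of the cell types an ovary sample can hold differed as well. All 9 late eggshell markers fell (summed level 5.41 to 10.1 CPM in KO ovaries, against 9953 to 18999 CPM in control ovaries). Of 10 follicle cell markers 7 rose and 1 fell (1395 to 1520 CPM, against 410 to 614 CPM). Of 11 muscle markers 8 rose (5304 to 5408 CPM, against 944 to 1261 CPM). Of 5 hemocyte markers 3 rose (667 to 674 CPM, against 260 to 305 CPM). Of 8 fat body markers 1 rose (Lsp1beta) and 1 fell (Yp3). Their sum was 2865 to 3545 CPM, against 4171 to 7431 CPM, and nearly all of it came from the yolk protein genes Yp1, Yp2 and Yp3. No marker outside these yolk genes had a lower mean in the knockout. Lsp2, not called, had 46.0 and 12.5 CPM in KO ovaries, against 0.535, 3.31 and 9.92 CPM in control ovaries. All 20 germline markers had counts in both groups, 5 rose and 4 fell, and their sum was 2184 to 2400 CPM in KO ovaries, against 1790 to 2546 CPM in control ovaries. In whole ovaries, fewer cells of a type and less RNA per cell cannot be told apart, and the part of these differences in the results below was not tested.

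Translation factors took 4.52% and 4.89% of all counts in the knockout, against 3.56%, 2.92% and 2.76% in the control. The groups did not overlap. Of the 53 factors 49 had enough counts to be tested: 15 rose (30.6% of those tested, where 22.7% of all tested genes rose), 1 fell (18.7% of all tested genes fell), and 33 were not called. The median log2 fold change was 0.44 over the tested factors and 0.11 over all tested genes. Of the 15, eIF4E3, eIF4E6, eIF4E7 and eIF3f2 had 1 to 3 counts over all controls together and passed the filter on low counts through the knockout alone, so they had to differ. Without these 4, 11 of 45 factors rose (24.4%, close to the 22.7% of all genes), with a median of 0.36. The knockout libraries lay above all controls for 28 of the 49 factors (37.6% of all tested genes) and below all controls for 7 (30.5% of all tested genes). Without the 4 that had to differ, they lay above all controls for 24 of 45.

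These calls need both knockout libraries. With edgeR and the same adjustment, no factor was called without KO 1 (11 had an unadjusted p under 0.05, all higher, and 5.12% of all genes rose and 4.34% fell) or without KO 2 (7, all higher, and 6.38% and 4.75%). The lone knockout library is there assumed to vary as the controls do. DESeq2 and limma-voom were not run on these subsets. With all libraries, DESeq2 called 24 factors higher and 2 lower (26.6% and 23.4% of all genes), and limma-voom 21 and 1 (27.9% and 19.8%).

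**Figure D1:**
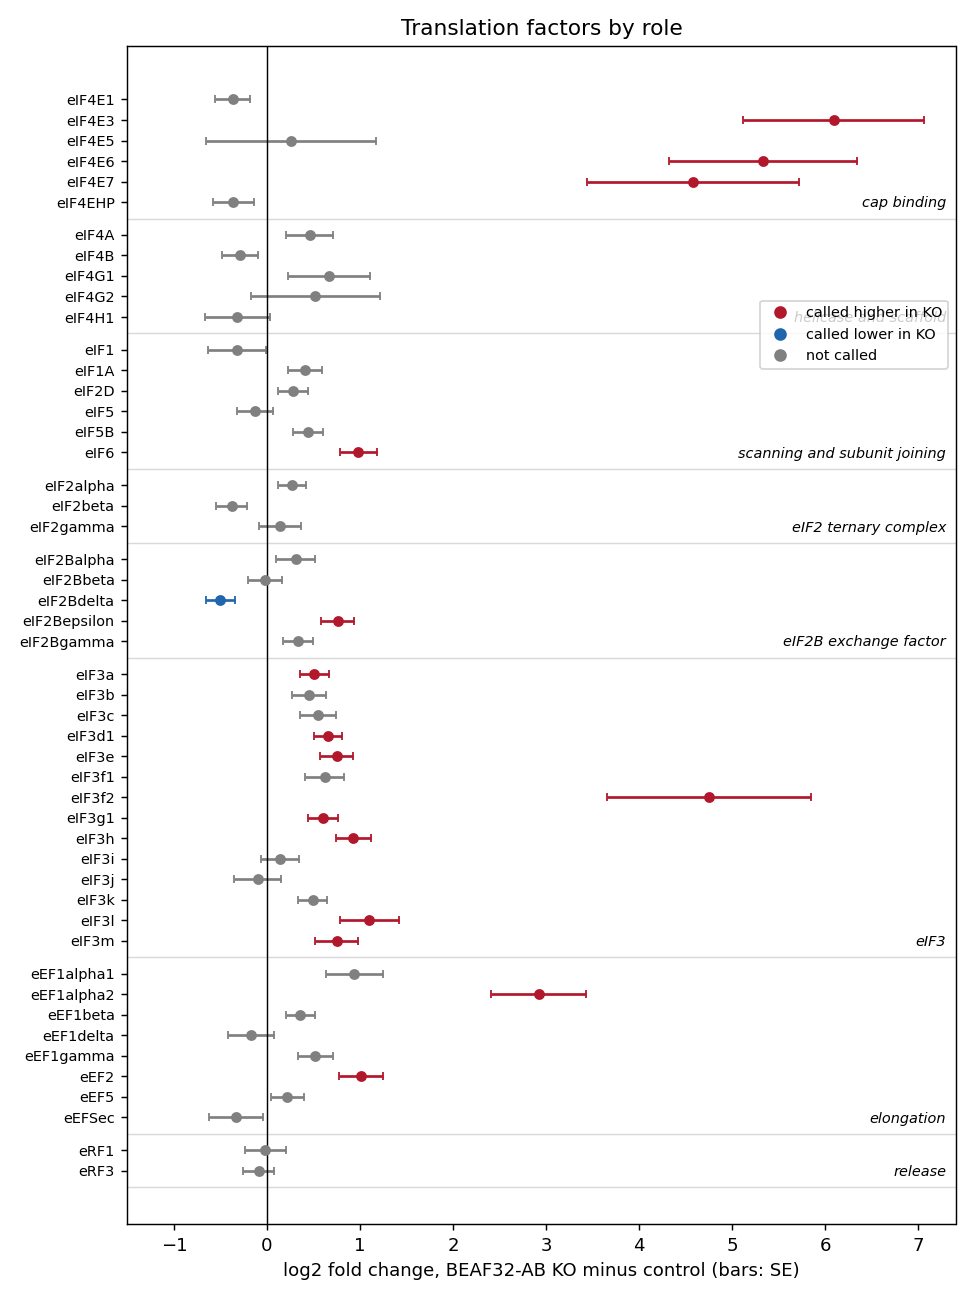
The log2 fold change of the 49 tested factors (horizontal axis, BEAF32-AB KO minus control, bars are SE) is grouped by role, with called genes in colour and the others in grey. Most eIF3 subunits lie to the right of 0, the minor copies eIF4E3, eIF4E6, eIF4E7, eIF3f2 and eEF1alpha2 lie far to the right with wide errors, and the release factors lie near 0.

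eIF3, the large complex that holds the small subunit ready for scanning, was the role with the most called factors: 8 of its 14 tested genes rose, where 22.7% of all genes did, and none fell (18.7% of all genes). Of the 8, eIF3f2 had to differ, which leaves 7 of 13. DESeq2 called 12 of the 14 higher and limma-voom 11, with 0 lower in both and by unadjusted p. The eIF3 genes together took 0.510% and 0.583% of counts in the knockout, against 0.398%, 0.376% and 0.360% in the control. The groups did not overlap. eIF3h had 357 and 410 CPM in KO ovaries, against 240, 206 and 176 CPM in control ovaries (0.93, SE 0.19, adjusted p = 0.0141). eIF3d1, the subunit that can itself bind caps in human cells, had 473 and 532 CPM in KO ovaries, against 315, 322 and 346 CPM in control ovaries (0.66, SE 0.15, adjusted p = 0.0198). eIF3e had 359 and 454 CPM in KO ovaries, against 218, 275 and 254 CPM in control ovaries (0.75, SE 0.18, adjusted p = 0.0202). For all 3 the lower knockout library stood above the highest control. eIF3g1, a subunit with RNA-binding activity, had 210 and 218 CPM in KO ovaries, against 139, 165 and 133 CPM in control ovaries (0.60, SE 0.16, adjusted p = 0.0325). The called subunits eIF3l (1.10), eIF3m (0.75) and eIF3a (0.51) had adjusted p-values of 0.0394, 0.0469 and 0.0488. For eIF3l and eIF3m control 1 was nearest to the knockout: eIF3l had 358 and 458 CPM in KO ovaries, against 278, 163 and 143 CPM in control ovaries.

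Of the subunits not called, eIF3b (890 and 997 CPM in KO ovaries, against 808, 683 and 637 CPM in control ovaries, adjusted p = 0.0918), eIF3c (807 and 833 CPM, against 676, 532 and 525 CPM, adjusted p = 0.0652), eIF3f1 (208 and 278 CPM, against 130, 193 and 163 CPM, adjusted p = 0.0619) and eIF3k (145 and 173 CPM, against 104, 127 and 117 CPM, adjusted p = 0.0517) also had no overlap between groups. Only eIF3i (198 and 280 CPM in KO ovaries, against 195, 224 and 245 CPM in control ovaries) and eIF3j (161 and 183 CPM, against 133, 220 and 219 CPM) overlapped. With eIF3f2, which had to differ, 12 of the 14 tested eIF3 genes lay above all controls and 0 below. Of all tested genes 37.6% lay above and 30.5% below. eIF3j is a loosely bound partner of the complex, and eIF3i a subunit built as a ring of WD repeats. Per length of merged exons, the 13 subunits lay within a narrow band, from 126 CPM per kb (eIF3j) to 352 CPM per kb (eIF3b) in the knockout, a 2.78-fold range, and from 92.9 CPM per kb (eIF3m) to 264 CPM per kb (eIF3b) in the control, a 2.85-fold range. The median was 208 CPM per kb in the knockout and 140 CPM per kb in the control.

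The eIF3 calls depended on scaling and on single libraries. When libraries were scaled on the 20 germline markers, the median log2 fold change was -0.08 over all tested genes and 0.23 over the factors. The factors' median then lay 0.32 above that of all genes, where it lay 0.33 above it in the TMM-scaled fit. With no filter on low counts the gap was 0.12 (0.39 over 51 factors and 0.27 over all genes), and over the other settings it was 0.24 to 0.35. Scaled on the germline markers, eIF3d1, eIF3e, eIF3g1, eIF3m and eIF3a were not called (adjusted p = 0.134, 0.111, 0.189, 0.0672 and 0.257). On that germline scale eIF3h and eIF3l were called (adjusted p = 0.0227 and 0.0254). Without control 2, and likewise without control 3, eIF3f2 was the only eIF3 gene called, and all 7 other called subunits lost their call (eIF3h, adjusted p = 0.0813 and 0.0665). Without control 1 there were 12 higher and 1 lower (eIF3j, -0.30, adjusted p = 0.0356). With control 1 as the only control the differences were 0.58 (eIF3h), 0.57 (eIF3d1), 0.79 (eIF3e), 0.52 (eIF3g1), 0.45 (eIF3l), 0.34 (eIF3m) and 0.28 (eIF3a). A term for depth class (control 1 and the knockouts against controls 2 and 3) was also tried. With it eIF3m (0.45, adjusted p = 0.0633) and eIF3a (0.39, adjusted p = 0.058) were not called, and the other called subunits kept their call. Of all genes, 16.4% rose without control 2 (15% fell), 16.6% without control 3 (15.5% fell) and 37.8% without control 1 (30.8% fell).

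The rare second gene for subunit f, eIF3f2 (chromosome 2R, 6200853 to 6201956, plus strand, dm6), had 21 and 60 counts in the knockout, against 2, 0 and 0 counts in the control (fitted log2 fold change 4.75, SE 1.10, adjusted p = 0.0194). Summed over libraries its rate was 28.0 times that of the control (95% interval 7.51 to 235, counting error only). Both knockout libraries were above every control, at levels of 0.541 and 1.25 CPM, where eIF3f1 was at 208 and 278 CPM.

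**Figure D2:**
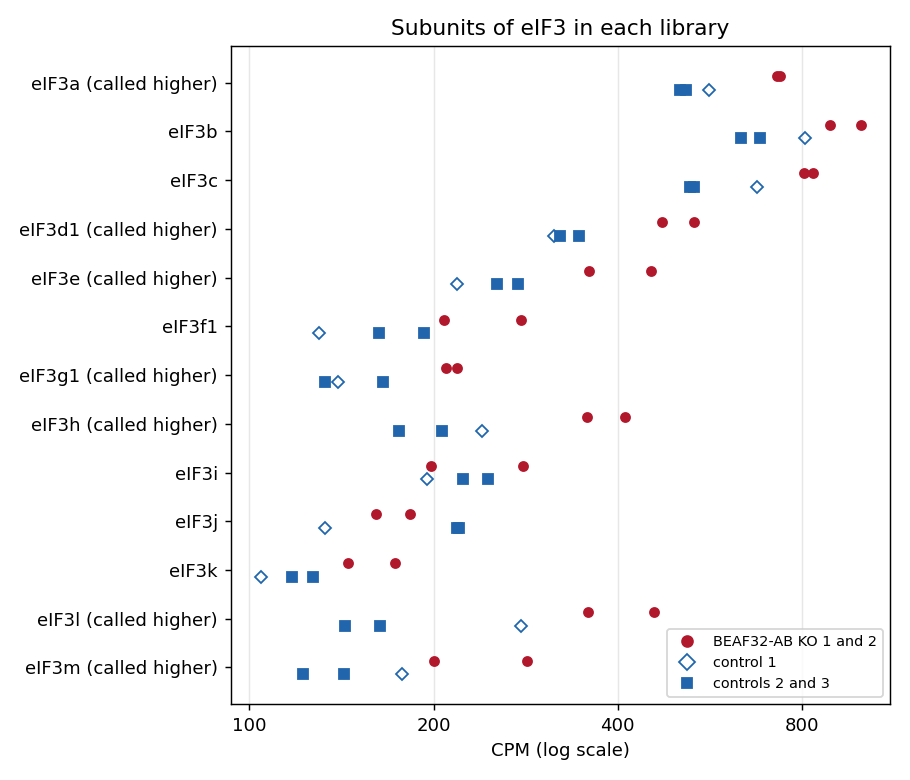
Each row is a subunit of eIF3 and each symbol a library, with CPM on a log axis: filled circles are the BEAF32-AB KO libraries, open diamonds control 1 and filled squares controls 2 and 3. In eIF3h, eIF3d1 and eIF3e both circles lie well to the right of all control symbols, and in eIF3i and eIF3j they do not.

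The cap-binding family has 7 genes in the table, of which 6 were tested. Of these, 3 rose, all of them genes that passed the filter through the knockout alone and so had to differ. None fell (0 lower by unadjusted p, DESeq2 or limma-voom), where 18.7% of all tested genes did. eIF4E1, the general cap-binding protein, had 467 and 519 CPM in KO ovaries, against 754, 620 and 594 CPM in control ovaries (-0.37, SE 0.19, adjusted p = 0.157). eIF4EHP, which holds the cap without binding eIF4G and so represses its targets, had 87.2 and 82.2 CPM in KO ovaries, against 137, 97.2 and 101 CPM in control ovaries (-0.36, SE 0.22, adjusted p = 0.236). Both lay below all controls, as did 30.5% of all tested genes, and were not called. Part of the eIF4EHP annotation, 6.96% of its merged exon bases, overlaps Syx1A on the same strand, and its counts were fractional in all 5 libraries, so its level is uncertain. With depth class (control 1 and the knockouts against controls 2 and 3) as a term in the fit, eIF4E1 (-0.60, adjusted p = 0.00741) and eIF4EHP (-0.68, adjusted p = 0.00359) were called lower. Both shallow libraries are controls, so the difference in that fit is between the knockout and control 1. Controls 2 and 3 add only to its estimate of error.

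Of the 5 copies of eIF4E that are rare in these ovaries, 3 rose, the same 3 that had to differ. eIF4E3, a cap-binding protein of the fly testis (chromosome 3L, 8229224 to 8230568, plus strand, dm6), had 86 and 201 counts in the knockout, against 3, 0 and 0 counts in the control. That is 2.21 and 4.20 CPM in KO ovaries against 0.073 CPM in control 1, and the fitted log2 fold change was 6.09 (SE 0.97, adjusted p = 0.00596). Summed over libraries its rate was 66.2 times that of the control (95% interval 22.4 to 323, counting error only). eIF4E6 (chromosome 3R, 29026439 to 29027174, minus strand) had 42 and 76 counts in the knockout, against 2, 0 and 0 in the control, a rate ratio of 40.8 (11.1 to 341) and a fitted change of 5.33 (SE 1.01, adjusted p = 0.0103). eIF4E7 (chromosome X, 1158599 to 1162389, minus strand) had 13 and 28 counts in the knockout, against 1, 0 and 0 in the control, a rate ratio of 28.4 (4.82 to 1148) and a fitted change of 4.58 (SE 1.14, adjusted p = 0.0242), which was not called with the term for depth class (4.03, adjusted p = 0.0532). For all 3, both knockout libraries stood above every control, and control 1, the deep control, was the only control with a count. The shallow controls could not show these copies at the level of control 1, since 3 counts there are 0.355 and 0.289 CPM. For eIF4E7, KO 1 was itself at 0.335 CPM, so the lack of counts in control 2 cannot show that control to be lower than KO 1.

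The copies above passed the filter on low counts through the knockout alone, and eIF4E5 had counts in every control. Their results are thus not a like comparison. eIF4E5, the other testis-expressed copy, had 21 and 7 counts in the knockout, against 11, 3 and 3 in the control, or 0.541 and 0.146 CPM against 0.268, 0.355 and 0.289 CPM, and overlapped (0.26, SE 0.91, adjusted p = 0.833). eIF4E4 had no count in any library, which allows up to 0.0346 CPM in KO ovaries and 0.0501 CPM in control ovaries (3 counts over each group). Even where they rose, the rare copies stayed far below eIF4E1: per length and with counts summed over a group's libraries, so that control 1 weighs most in the control, eIF4E3 made up 1.42% of its pair with eIF4E1 in the knockout and 0.0152% in the control, and eIF4E6 0.887% and 0.0154%. As the eIF4E copies are related in sequence, reads could have been split among them by the counting.

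Markers of the testis were read beside these values, since the labelled tissue is ovary. Of the 22 testis markers 21 are in the table and 7 had enough counts to be tested, of which aly and mia rose and twe, which is also used in the oocyte, fell. The counts of aly were 16 and 14 in the knockout, with none in the control. It thus passed the filter through the knockout alone and had to differ. Their summed level was 35.8 and 38.9 CPM in KO ovaries, against 115.5, 104 and 95.9 CPM in control ovaries. Without twe it was 26.7 and 26.3 CPM in KO ovaries, against 16.9, 9.59 and 9.82 CPM in control ovaries. Most of that was bol (16.2 and 15.4 CPM in KO ovaries, against 14.3, 9.11 and 6.83 CPM in control ovaries). It was not called (0.68, adjusted p = 0.177), nor were topi, fzo and betaTub85D. The level of mia was 6.03 and 8.325 CPM in KO ovaries, against 0.92, 0.47 and 1.83 CPM in control ovaries. Mst84Dc, Mst84Dd, dj and nht had no count in any library. Mst98Ca had 14 and 0 counts in the knockout, ocn 12 and 0, Mst84Da 5 and 0, Mst84Db 3 and 0, sa 2 and 0, and Mst98Cb and comr 2 and 1 each, all with none in the control. Mst87F had 2 and 1 counts in the knockout, against 1, 0 and 0 in the control, and djl 4 and 1, against 0, 0 and 5. For can there were 2 and 0 counts in the knockout, against 0, 0 and 3 in the control. Of the 21, 12 were at 0 in every control. Their part in the values of the rare eIF4E copies was not tested.

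Among scaffolds and helicases, with 5 of 6 genes tested, none was called in either direction (0 by unadjusted p, DESeq2 or limma-voom). eIF4A, the helicase that opens the leader of an mRNA, had 2164 and 2511 CPM in KO ovaries, against 1234, 1851 and 2159 CPM in control ovaries (0.46, SE 0.25, adjusted p = 0.193). The groups touched without overlapping, since KO 1 and control 3 were nearly level. It was called higher with the term for depth class (0.93, adjusted p = 0.00289), which again compares the knockout with control 1. With control 1 as the only control the difference was 0.82. eIF4B, which stimulates eIF4A, had 352 and 318 CPM in KO ovaries, against 392, 490 and 389 CPM in control ovaries (-0.29, SE 0.19, adjusted p = 0.256). eIF4H1, which acts in the same way in mammals, had 472 and 554 CPM in KO ovaries (-0.32, SE 0.35, adjusted p = 0.497). That lay between control 1 at 371 CPM and controls 2 and 3 at 769 and 840 CPM.

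eIF4G1, the main scaffold and the only factor on chromosome 4, had 1082 and 1101 CPM in KO ovaries, against 1146, 549 and 417 CPM in control ovaries (0.67, SE 0.44, adjusted p = 0.264). Here the knockout libraries lay beside control 1 and well above controls 2 and 3. eIF4G2, the copy that male meiosis needs, had 207 and 186 CPM in KO ovaries, against 283, 84.6 and 54.0 CPM in control ovaries (0.52, SE 0.69, adjusted p = 0.571). Of its merged exon bases 8.56% overlap CG33111 on the same strand, and its counts were fractional in all 5 libraries. Control 1 decided both values. Without it eIF4G1 (1.23, adjusted p = 8.61e-05) and eIF4G2 (1.57, adjusted p = 0.000442) were called higher, and with control 1 as the only control eIF4G2 was called lower (-0.62, adjusted p = 0.00902). eIF4H2 had 1 count in KO 1 and none elsewhere.

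Of the 6 factors of start-site scanning and subunit joining, eIF6 rose and none fell (0 lower by unadjusted p, DESeq2 or limma-voom). Over all tested genes, 22.7% rose and 18.7% fell. eIF6 keeps large subunits from joining too early and takes part in their assembly. It had 128 and 131 CPM in KO ovaries, against 55.1, 84.2 and 65.2 CPM in control ovaries (0.98, SE 0.20, adjusted p = 0.0135), which no control reached. Scaled on germline markers its call was lost (0.76, adjusted p = 0.0529). eIF5B, the GTPase of subunit joining, had 448 and 422 CPM in KO ovaries, against 334, 321 and 336 CPM in control ovaries (0.44, SE 0.16, adjusted p = 0.0735), and was called by DESeq2 (adjusted p = 0.00989) and limma-voom (adjusted p = 0.0494). eIF1A, which works in the decoding site during scanning, had 551 and 474 CPM in KO ovaries, against 385, 382 and 431 CPM in control ovaries (0.41, SE 0.18, adjusted p = 0.120). eIF5, the GTPase activator of eIF2, had 487 and 408 CPM in KO ovaries, against 551, 502 and 464 CPM in control ovaries (-0.13, SE 0.19, adjusted p = 0.620), with 80.8% of its merged exon bases shared with CG46312 on the same strand. eIF1, which guards start codon choice, had 293 and 393 CPM in KO ovaries, against 284, 477 and 555 CPM in control ovaries (-0.32, SE 0.31, adjusted p = 0.437). eIF2D, which can deliver initiator tRNA without GTP, was at 38.3 and 44.5 CPM in KO ovaries, against 38.2, 32.8 and 33.8 CPM in control ovaries (0.28, SE 0.16, adjusted p = 0.204).

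The 3 subunits of eIF2 were not called (0 by unadjusted p and by limma-voom). DESeq2 called eIF2alpha higher (0.27, adjusted p = 0.0471) and eIF2beta lower (-0.38, adjusted p = 0.0386). eIF2beta had 206 and 203 CPM in KO ovaries, against 245, 283 and 296 CPM in control ovaries. eIF2alpha, the subunit whose phosphorylation halts initiation under stress, had 247 and 281 CPM in KO ovaries, against 210, 234 and 232 CPM in control ovaries. Neither overlapped between groups, where 37.6% of all tested genes lay above all controls and 30.5% below. eIF2gamma, the GTPase subunit, had 358 and 405 CPM in KO ovaries, against 265, 397 and 408 CPM in control ovaries (0.14, SE 0.23, adjusted p = 0.636). It shares 352 of its merged exon bases, 16%, with Su(var)3-9, and its counts were fractional in every library.

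Among the 5 subunits of eIF2B, 1 rose and 1 fell, where 22.7% of all tested genes rose and 18.7% fell. eIF2Bepsilon, the catalytic subunit, had 77.4 and 95.2 CPM in KO ovaries, against 56.8, 45.8 and 54.4 CPM in control ovaries (0.76, SE 0.18, adjusted p = 0.0194). eIF2Bdelta, a regulatory subunit, had 57.7 and 58.2 CPM in KO ovaries, against 77.6, 83.2 and 93.4 CPM in control ovaries (-0.50, SE 0.16, adjusted p = 0.0493). It was the only factor called lower, close to the threshold, and was not called without control 2 (adjusted p = 0.0695) or control 3 (adjusted p = 0.0954). The call of eIF2Bepsilon was lost without control 2 (adjusted p = 0.0827), without control 3 (adjusted p = 0.0738) and when scaled on germline markers (0.56, adjusted p = 0.0533). The others had adjusted p-values of 0.150 (eIF2Bgamma), 0.279 (eIF2Balpha) and 0.923 (eIF2Bbeta). Per length of merged exons, eIF2Bepsilon was at 35.3 ± 5.16 CPM per kb in the knockout and 21.4 ± 2.37 CPM per kb in the control, and eIF2Bdelta at 26.6 ± 0.160 CPM per kb in the knockout and 39.0 ± 3.67 CPM per kb in the control (SD, n = 2 and 3). In the knockout, neighbours in the order of the 5 differed by less than their summed SDs. The 5 spanned a 1.32-fold range in the knockout and a 1.82-fold range in the control.

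Elongation factors took most of the counts. eEF1alpha1, the GTPase that carries aminoacyl-tRNAs to the ribosome, had 18823 and 19575 CPM in KO ovaries, against 14453, 8755 and 7702 CPM in control ovaries (0.94, SE 0.31, adjusted p = 0.0537). Both knockout libraries lay above every control and control 1 was the nearest. DESeq2 (adjusted p = 0.0202) and limma-voom (adjusted p = 0.0349) called it, and so did edgeR without control 1 (1.27, adjusted p = 0.000118). With control 1 as the only control the difference was 0.31 (adjusted p = 0.271), with the term for depth class 0.43 (adjusted p = 0.0835), without control 2 0.72 (adjusted p = 0.212) and without control 3 0.69 (adjusted p = 0.170). eEF2, the translocase, rose: 7863 and 9072 CPM in KO ovaries, against 5487, 3901 and 3548 CPM in control ovaries (1.01, SE 0.24, adjusted p = 0.0206). Its call was lost without control 2 (0.84, adjusted p = 0.107) or control 3 (0.82, adjusted p = 0.0810). With control 1 as the only control the difference of eEF2 was 0.52. It was called with the term for depth class (0.64, adjusted p = 0.0156). Together both genes made up 59.1% and 58.5% of the counts on all translation factors in the knockout, against 56.0%, 43.3% and 40.7% in the control. The rest of the factors took 1.85% and 2.03% of library counts in the knockout, against 1.57%, 1.66% and 1.64% in the control.

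The exchange factors of eEF1alpha were not called by edgeR with all 5 libraries. eEF1gamma had 1709 and 1944 CPM in KO ovaries, against 1523, 1225 and 1182 CPM in control ovaries (0.52, SE 0.19, adjusted p = 0.0717), and DESeq2 (adjusted p = 0.0260) and limma-voom (adjusted p = 0.0491) called it higher. eEF1beta had 550 and 683 CPM in KO ovaries, against 502, 506 and 476 CPM in control ovaries (0.36, SE 0.16, adjusted p = 0.119), and DESeq2 called it higher (adjusted p = 0.0193). eEF1delta had 450 and 442 CPM in KO ovaries, between control 1 at 370 CPM and controls 2 and 3 at 652 and 535 CPM. eEF5, the factor also known as eIF5A that helps ribosomes through runs of proline, had 1811 and 2083 CPM in KO ovaries, against 1430, 1879 and 1847 CPM in control ovaries (0.22, SE 0.18, adjusted p = 0.360). eEFSec, the factor for selenocysteine, was low in both groups, at 6.44 and 7.82 CPM in KO ovaries and 10.5, 8.88 and 8.09 CPM in control ovaries (-0.33, SE 0.29, adjusted p = 0.390).

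The minor gene for eEF1alpha rose. eEF1alpha2 (chromosome 3R, 31738468 to 31743306, plus strand), whose mammalian counterpart serves muscle and neurons, had 311 and 351 counts in the knockout, against 30, 7 and 17 in the control. That is 8.01 and 7.34 CPM in KO ovaries, against 0.730, 0.829 and 1.64 CPM in control ovaries (2.92, SE 0.51, adjusted p = 0.00791). Of the 12 called factors that did not pass the filter through the knockout alone, it was the only one called in all 13 other settings that held both knockout libraries. The muscle markers moved the same way (5304 and 5408 CPM in KO ovaries, 944 to 1261 CPM in control ovaries), and their part in this value was not tested. Per length, with counts summed in the same way, it was 0.0368% of its pair with eEF1alpha1 in the knockout and 0.00670% in the control.

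The release factors were not called (0 by unadjusted p, DESeq2 or limma-voom). eRF1, which reads stop codons, had 395 and 434 CPM in KO ovaries, against 325, 494 and 477 CPM in control ovaries (-0.02, SE 0.22, adjusted p = 0.963). eRF3, its GTPase partner, had 601 and 538 CPM in KO ovaries, against 616, 654 and 614 CPM in control ovaries (-0.09, SE 0.17, adjusted p = 0.682). Knockout and control values of eRF1 overlapped, and those of eRF3 were separate by a small margin.

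Copies of one factor were then compared with each other within each library, where scaling plays no part. In 12 pairs the copy with the highest level per length in the control was the main one, by either measure of length (merged exons or mean transcript), and 10 pairs had counts for both copies. The log2 ratio of eIF4E3 to eIF4E1 (0.5 counts added to each) was -7.71 and -6.94 in the knockout, against -13.11, -13.35 and -13.59 in the control, a difference of 6.02. That of eIF4E6 to eIF4E1 was -8.74 and -8.34 in the knockout, against -13.60, -13.35 and -13.59 in the control, a difference of 4.98. For eIF4E7 the difference was 3.68, and for eIF3f2 against eIF3f1, with ratios of -8.55 and -7.78 in the knockout and -11.06, -11.67 and -11.73 in the control, it was 3.32. In these 4 pairs the groups did not overlap, and the control ratios rest on at most 3 counts. The 4 rare copies passed the filter on low counts through the knockout alone, so they had to differ here too. In controls 2 and 3 these copies had none, so their ratios there are set by the added 0.5 counts and by depth, and with 1 count added the differences were 5.30 (eIF4E3), 4.23 (eIF4E6), 2.92 (eIF4E7) and 2.59 (eIF3f2). An exact two-sided permutation test over the 10 groupings gave p = 0.1 for each of the 4, the smallest that 2 against 3 libraries allow (0.25 after adjustment over 10 pairs), so no pair could pass 0.05. For these 4 the value follows from how they passed the filter and is no separate result.

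The ratio of eEF1alpha2 to eEF1alpha1 was -11.20 and -11.38 in the knockout, against -14.25, -13.27 and -12.16 in the control, a difference of 1.94 (exact permutation p = 0.2, adjusted 0.4). The groups did not overlap, and the controls spread over more than 2 log2 units. In contrast, eIF4EHP stood at -2.42 and -2.66 relative to eIF4E1 in the knockout, against -2.46, -2.67 and -2.55 in the control, a difference of 0.02 (exact permutation p = 0.7, adjusted 0.875). The ratio of eIF4G2 to eIF4G1 was -2.38 and -2.56 in the knockout, within the control values of -2.02, -2.70 and -2.95, with a difference of 0.08 (exact permutation p = 0.8, adjusted 0.889). eIF3d2 had no count in any library and eIF3g2 had 4 counts in KO 1 and none elsewhere.

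**Figure D3:**
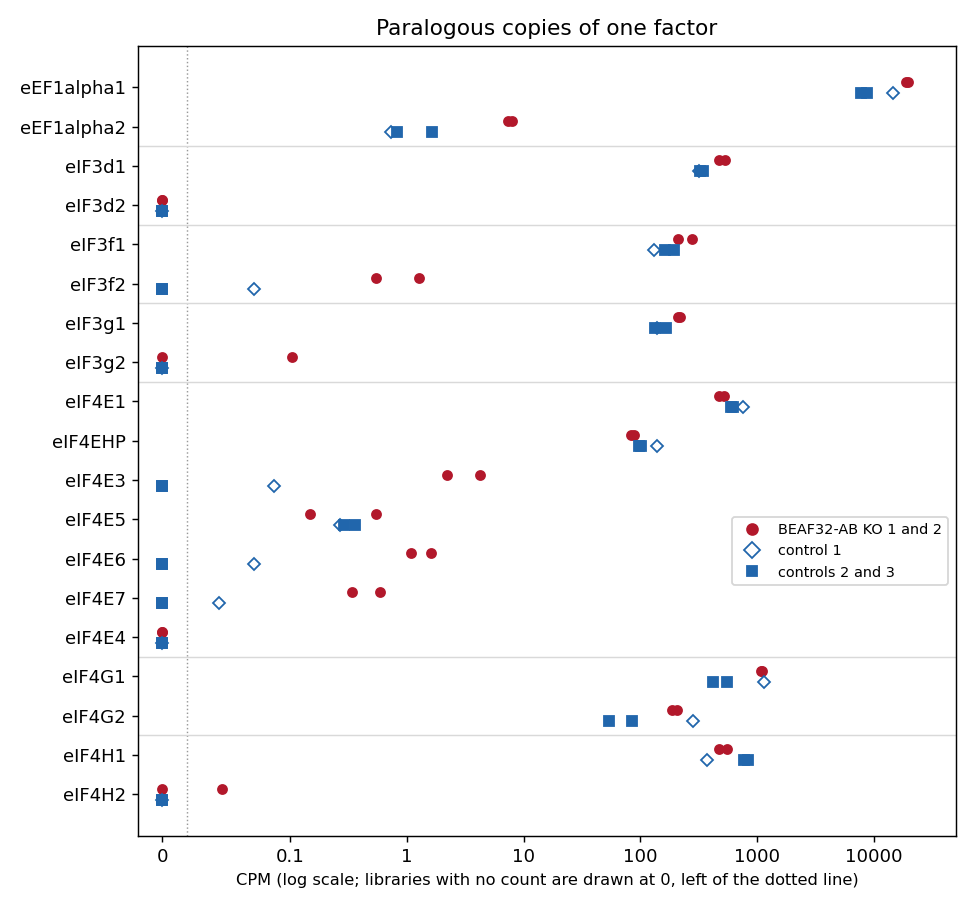
Rows are copies of one factor, family by family, and symbols are libraries, with CPM on a log axis and libraries without a count drawn at 0: filled circles are the BEAF32-AB KO libraries, open diamonds control 1 and filled squares controls 2 and 3. Both circles of eIF3f2, eIF4E3, eIF4E6, eIF4E7 and eEF1alpha2 lie to the right of all controls, at levels far below the main copies.

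In order of level per length, eEF1alpha1 came first in both groups (7792 ± 216 CPM per kb in the knockout and 4182 ± 1474 CPM per kb in the control, SD, n = 2 and 3). eEF2 was at 2771 ± 280 CPM per kb in the knockout and 1411 ± 338 CPM per kb in the control, and eEF5 at 2412 ± 238 CPM per kb in the knockout and 2130 ± 311 CPM per kb in the control, so that eEF2 came next in the knockout and eEF5 in the control. In the knockout eEF2 and eEF5 differed by less than their summed SDs, so their order there is not resolved. eEF1gamma (1077 ± 97.9 CPM per kb in the knockout, 773 ± 110 CPM per kb in the control) and eIF4A (942 ± 99.0 CPM per kb in the knockout, 705 ± 190 CPM per kb in the control) followed in both groups. They too lay within their spread. By mean transcript length eIF4A came before eEF1gamma. eIF4E1 was at 221 ± 16.5 CPM per kb in the knockout and 293 ± 38.4 CPM per kb in the control.

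Control 1 differed from controls 2 and 3 in both directions, and the fold changes moved with it. Among tested factors, 3 differed by more than 1 log2 unit between control 1 and the mean of controls 2 and 3 (0.1 CPM added): eIF4G2 (2.03), eIF4G1 (1.25) and eIF4H1 (-1.12). Over all tested genes 1901 of 9241 did. Without control 1, 26 of 47 tested factors were called higher and 6 lower, where 37.8% of all genes rose and 30.8% fell. With control 1 as the only control there were 15 higher and 5 lower, where 30.4% of all genes rose and 31.2% fell, and the error comes from the spread of the knockout libraries alone. Over all genes, 19.6% rose and 21.6% fell with germline scaling, 14.1% and 14.5% with no filter on low counts, 19.1% and 16.2% with the replicate number as a block, and 28.9% and 25.8% with depth class as a term. For 13 of the 49 tested factors the fold change had both signs across the settings, and none of these 13 is among the 16 called with all 5 libraries and no covariate. With depth class as a term, 3 of them were called higher: eIF3j (0.39, adjusted p = 0.0367), eIF4H1 (0.48, adjusted p = 0.0310) and eIF2gamma (0.54, adjusted p = 0.0126). That fit too sets the knockout against control 1. Without control 1, eIF4H1 (-0.60, adjusted p = 0.00237), eIF1 (-0.55, adjusted p = 0.00846), eEF1delta (-0.36, adjusted p = 0.0373) and eIF3j (-0.30, adjusted p = 0.0356) were called lower. Of the same 13, eIF4G1 and eIF4G2 were called higher there.

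**Figure D4:**
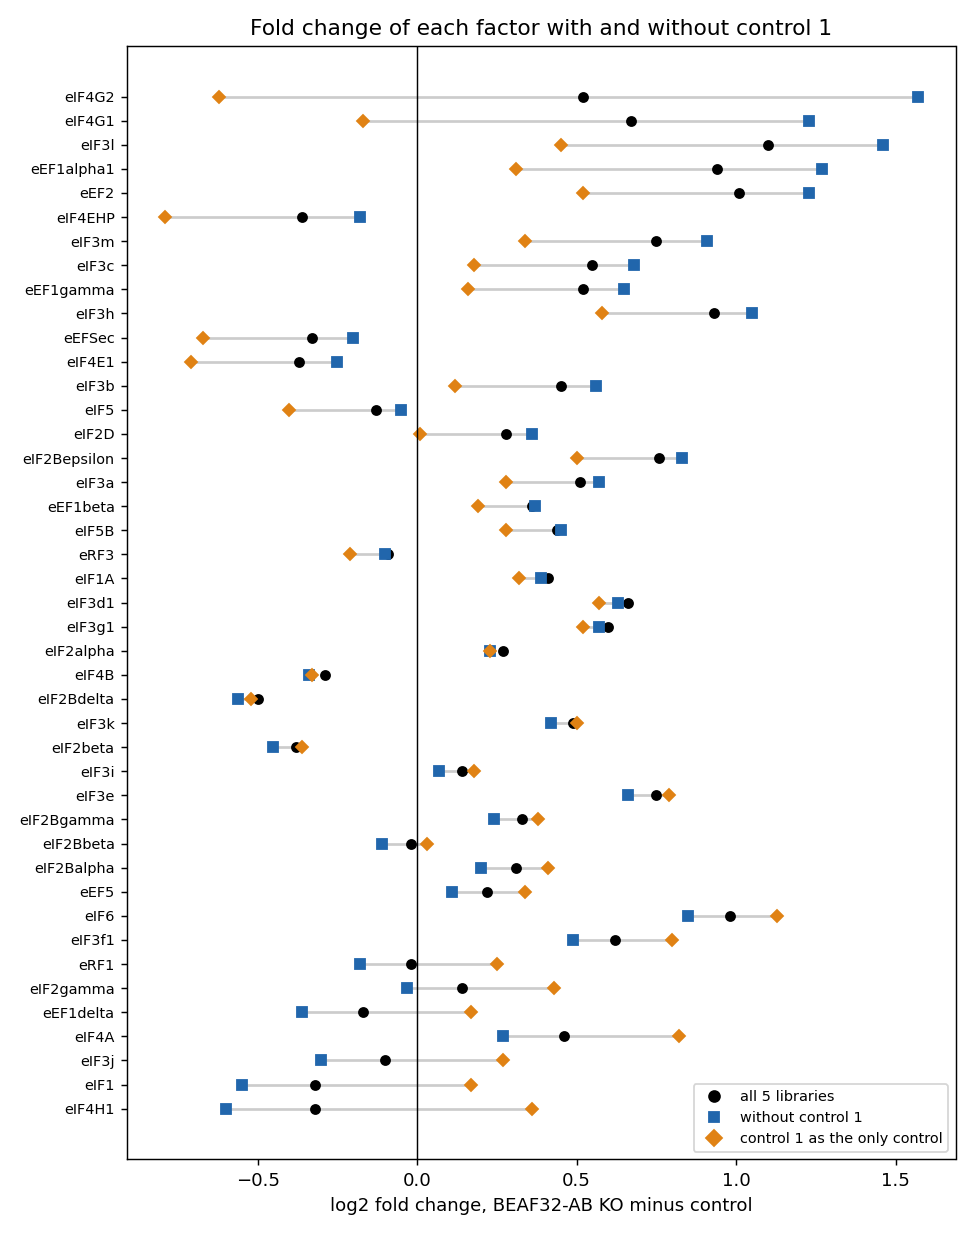
For 43 factors (those under 2 log2 units in size that were tested in all 3 fits) the log2 fold change, BEAF32-AB KO minus control, is shown with all 5 libraries (circles), without control 1 (squares) and with control 1 as the only control (diamonds). eIF4G2, eIF4G1, eIF4H1 and eIF1 lie on opposite sides of 0 in the fits without control 1 and with control 1 alone, while eIF3d1, eIF3e, eIF3h and eIF6 stay to the right of 0.

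Regulators of translation that do not carry the prefix moved both ways. Of 35 listed genes 32 are in the table and were tested, 6 rose (22.7% of all genes rose) and 10 fell (18.7%), with a median of 0.08. The table has no gene under the names cup, Dcp1 and Dcp2. Thor, the 4E-binding protein that keeps eIF4E from eIF4G, had 115 and 126 CPM in KO ovaries, against 30.1, 25.1 and 19.6 CPM in control ovaries (2.31, SE 0.22, adjusted p = 0.00116), with no overlap. crc, the fly ATF4 that acts downstream of eIF2alpha phosphorylation and activates Thor, rose by 0.93 (SE 0.16, adjusted p = 0.00720), while the eIF2alpha kinases PEK (-0.01, adjusted p = 0.990) and Gcn2 (0.14, adjusted p = 0.778) were not called. pix, the fly ABCE1 that recycles ribosomes, rose by 1.04 (SE 0.24, adjusted p = 0.0181), and HBS1, a rescue factor related to eRF3, by 0.70 (SE 0.15, adjusted p = 0.0155), while its partner pelo, related to eRF1, fell by 0.63 (SE 0.15, adjusted p = 0.0236). The repressors of maternal mRNAs me31B (461 and 543 CPM in KO ovaries, against 2645, 3214 and 2486 CPM in control ovaries, -2.43), tral (-1.88), smg (-2.86) and bru1 (-0.76) fell, as did Fmr1, twin, vas, brat and nos. The poly(A)-binding protein pAbp, the partner of eIF4G, was not called (0.22, SE 0.23, adjusted p = 0.467), nor was NAT1, an eIF4G relative (0.18, SE 0.47, adjusted p = 0.777). Also not called, among others, were 4E-T (0.21, adjusted p = 0.75), orb (0.55, adjusted p = 0.217) and AGO1 (-0.17, adjusted p = 0.424). The ribosomal genes Rack1 (0.82) and sta (0.98) rose.

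Of the 53 genes, 15 lie on 3R, 13 on 2R, 11 on 3L, 7 on X, 6 on 2L and 1 on chromosome 4. The annotation used here gives the prefix to 1 further gene, eIF2A, which the table lists as CG7414 and which the rule leaves out. It had 298 and 375 CPM in KO ovaries, against 329, 247 and 245 CPM in control ovaries (0.33, SE 0.21, adjusted p = 0.256).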

How the data were processed

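RNA of ovaries was made into directional libraries, per the labels' protocols. The submitters' processing notes name Salmon 1.2.1, STAR 2.7.5b, the build dm6, Trim Galore 0.6.6 and FastQC 0.11.8. Settings, strand handling and annotation are not given in the sources used here. The deposited values are estimated counts for each gene, unscaled, of which 3.21% to 4.26% per library lay over 0.01 from a whole number. Counts on 21 rRNA genes made up 11.7% to 17.3%. Columns were matched by sample description, groups by title. The design text speaks of duplicates, and all 5 libraries were used.

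Counts were rounded, filtered with filterByExpr, scaled by TMM and fitted with edgeR 4.0.16 in R 4.3.3 (glmQLFit, robust, no covariate, coefficient of variation 0.321). SE is the fold change over the square root of F. DESeq2 1.42.0, limma 3.58.1 and other scalings, filters and sample sets were alternatives. CPM uses column totals, and lengths and positions come from the Ensembl release 115 annotation (dm6 coordinates), which held all 53 factors. Rate ratios have exact 95% intervals, which like the limit of 3 counts cover counting error only. On simulated data with the same group sizes, edgeR found 8 genes altered 2-fold and 71 altered 4-fold, and wrongly called 9. DESeq2 found 34 and 80 but wrongly called 66. For limma-voom these numbers were 8, 71 and 7. Equal numbers of genes were altered 2-fold and 4-fold. In edgeR most 2-fold changes went uncalled and most 4-fold changes were called, while the sign was right for 195 altered genes. A factor not called by edgeR may thus still differ, and a call by DESeq2 alone is less certain. No libraries were duplicates (chi-square per degree of freedom between libraries of 1 group at least 12.9). The factors, roles and lists (translation regulators and markers of germline, follicle cells, late eggshell, testis, muscle, fat body and hemocytes) were chosen with earlier results of these data known. By rule, every paralog, up to 4 called factors per role with the smallest p, and the 2 highest uncalled were named. Other factors are given because the report covers all of them. Promoter motifs were not analysed here.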

Additional observations from a re-analysis of the deposited data

How the results depend on the processing

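Against 15 factors higher and 1 lower, the other settings gave 8 higher with germline scaling (median 0.23, not 0.44), 24 higher and 2 lower with DESeq2, 0 lower with no filter on low counts (2 by unadjusted p, with edgeR, and 11 higher) and 3 lower with depth class as a term (20 higher). With the replicate block, 10 were higher and 0 lower (0 by unadjusted p). The labels do not say that replicate numbers pair samples, and only 2 numbers are shared. With control 1 as the only control, a setting chosen after seeing the data, 5 were lower, 5949 genes were called in all and the median was 0.28. Leaving out 1 library at a time gave 0 to 26 factors higher, 0 to 6 lower, 878 to 6083 genes called and medians of 0.28 to 0.43. In the fits of single factors, the sign turned along with a call for eIF3j (0.39) and eIF4H1 (0.48) with depth class as a term, and for eIF4G2 (-0.62) with control 1 alone. Across pairs of copies, leaving out 1 library turned the sign of the difference for eIF4E5 (-0.78 to 1.19), eIF4EHP (-0.10 to 0.14), eIF4G2 (-0.12 to 0.35), eIF4H2 (-1.48 to 0.64) and eIF3g2 (-2.23 to 1.30), and in none of these pairs were the groups separate. RLE scaling, column totals, limma-voom and leaving out rRNA genes kept all 4 summary values within 1.5 times or within the spread between libraries. The cause of these changes was not tested. Depth limits the rare copies: 3 counts are 0.0628 CPM in KO 2 and 0.355 CPM in control 2.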

Other observations

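Length in merged exons went with the difference between controls. Across the 9202 tested genes with a length, Spearman's rho between length and the ratio of control 1 to the mean of controls 2 and 3 was 0.47, and across the 49 tested factors 0.28, as a description over genes that share the same libraries and are not independent. Between length and the log2 fold change of knockout against control, rho was 0.11 over all tested genes and -0.06 over the factors. Single factors varied: eIF4G2 (9097 bases) and eIF4G1 (6565 bases) were 4.07 and 2.37 times as high in control 1 as in the mean of the other controls (0.1 CPM added), while eIF4H1 (4430 bases) was at 0.461 times, eIF5B (4410 bases) at 1.02 times, eRF3 (4409 bases) at 0.971 times and eIF1 (681 bases) at 0.550 times.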
